A study of Rattus norvegicus with 24 samples.

Results

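Skeletal muscle genes were followed in rat skin explants that had been exposed to syngeneic or allogeneic lymphocytes. The 10 genes *Acta1*, *Mybph*, *Actn2*, *Pdlim3*, *Ckm*, *Ckmt2*, *Ryr1*, *Chrna1*, *Myod1* and *Myog* were taken by the gene name that the scanner files give their probes. They had 11 of the 8453 probes and made up 10 of the 7221 genes on the array. They had been picked because earlier results of the same arrays showed their spread across rats and their co-variation, so that their own values are given below as a description, without a test. The skin came from the paws of 12 male BN rats aged 15 weeks, and the subcutaneous fat had been removed. Each rat gave 1 explant that met BN lymphocytes (labelled syngeneic) and 1 that met PVG lymphocytes (labelled allogeneic), in a co-culture of 3 days. Both kinds of lymphocytes were splenocytes from a 7-day mixed lymphocyte reaction and were added to skin of the BN strain. The RNA of both explants of a rat was hybridized together to a two-color array, and again to a second array with the dyes exchanged, which gave 24 arrays on 3 slides.

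Skeletal muscle fibres contract by the sliding of actin filaments along myosin filaments that are anchored in Z-discs and in the M-band. Calcium released through the ryanodine receptor starts the contraction after acetylcholine has opened its receptor at the neuromuscular junction, and creatine kinases buffer the ATP that is used. New fibres form from satellite cells under the control of the myogenic regulators, a family of basic helix-loop-helix factors that includes *Myod1*, *Myog*, *Myf5* and *Myf6* and that binds the E-box, CANNTG. Skin of the rat lies on a thin sheet of skeletal muscle in many body regions, and the paw has its own small muscles. The keratinocyte markers on the array (*Lgals7*, *Jup*, *Cdh1* and *Dsc3*) were well above background in at least 1 channel of all 24 arrays, and so was every one of the 10 muscle genes. In bulk RNA of an explant, fewer muscle cells and less RNA per muscle cell cannot be told apart.

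The upstream sequences of 4 of the genes are shown because the results below separate *Acta1* and *Ckm* from *Myog* and *Chrna1*. Each line holds the 250 bases before the start of the gene in the RefSeq annotation of the GRCr8 assembly, 5′ to 3′ on the strand of the gene, with every CANNTG in capitals.
*Acta1* (chr19:68784195-68784444, minus strand): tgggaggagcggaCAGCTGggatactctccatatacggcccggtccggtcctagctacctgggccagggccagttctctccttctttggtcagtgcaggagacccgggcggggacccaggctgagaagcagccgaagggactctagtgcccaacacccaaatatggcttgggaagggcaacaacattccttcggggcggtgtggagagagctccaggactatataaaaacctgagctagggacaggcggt
*Ckm* (chr1:88189211-88189460, plus strand): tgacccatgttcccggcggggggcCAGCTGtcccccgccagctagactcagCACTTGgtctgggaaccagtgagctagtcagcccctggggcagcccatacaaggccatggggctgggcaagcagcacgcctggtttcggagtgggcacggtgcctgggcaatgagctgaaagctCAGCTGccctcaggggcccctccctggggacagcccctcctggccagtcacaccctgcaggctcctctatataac
*Myog* (chr13:48297226-48297475, plus strand): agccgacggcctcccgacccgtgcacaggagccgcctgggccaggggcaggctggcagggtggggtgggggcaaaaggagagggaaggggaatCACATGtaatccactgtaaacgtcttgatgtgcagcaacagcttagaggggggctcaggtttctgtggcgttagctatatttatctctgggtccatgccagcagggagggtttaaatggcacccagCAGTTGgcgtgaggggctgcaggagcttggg
*Chrna1* (chr3:78877354-78877603, minus strand): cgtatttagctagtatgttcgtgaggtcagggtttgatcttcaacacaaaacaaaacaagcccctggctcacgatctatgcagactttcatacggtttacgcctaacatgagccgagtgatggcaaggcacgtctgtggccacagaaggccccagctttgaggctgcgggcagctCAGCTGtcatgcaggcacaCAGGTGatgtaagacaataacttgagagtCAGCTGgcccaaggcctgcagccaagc
Such a window was at hand for 7 of the 10 genes (*Acta1*, *Ckm*, *Ckmt2*, *Myog*, *Ryr1*, *Actn2* and *Chrna1*). CANNTG, which reads as the same pattern on both strands, was in 7 of these 7 windows and in 65.5% of the 33469 windows of this length. The form CAGCTG, which CANNTG includes, was in 4 of the 7 windows and in 12% of all. In *Ckm* it began 226 and 75 bases, in *Chrna1* 75 and 27 bases, in *Acta1* 237 bases and in *Ckmt2* 113 bases before the start. The CArG box was found in the *Acta1* window alone among the 7 and in 1.5% of all windows. The MEF2 box, sought only as a strict pattern, matched in 0 of the 7 and in 0.523% of all. A count of 0 thus does not show that a window, that of *Myog* included, lacks a looser form of the MEF2 box. These matches describe letters in a window, not sites that were measured.

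A probe is an oligonucleotide of 60 bases, and it is the only stretch of the transcript that the array measured. The probe of *Ckm* is shown because this gene was among those that varied most, and a probe of *Pdlim3* because it disagreed with the other probe of that gene. Coordinates are those of the scanner files on the rn3 assembly.
*Ckm* probe (chr1:78850529-78850588, plus strand): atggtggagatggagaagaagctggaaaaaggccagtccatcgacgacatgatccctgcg
*Pdlim3* probe 2 (chr16:49647935-49647994, minus strand): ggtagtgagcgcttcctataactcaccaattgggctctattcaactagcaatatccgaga
The other *Pdlim3* probe, called probe 1 here, lies at chr16:49637253-49637312 on the minus strand. Whether a probe also bound the transcript of a related gene was not tested.

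All values are log2-fold changes of the explant labelled allogeneic over the explant labelled syngeneic of the same rat, as the mean of both dye orientations. The signs follow the dye labels and are opposite to those of the study. Its qRT-PCR on part of the same explant pairs gave the study's own direction for nearly all genes tested, among them *Aif1*. The study also reported *Aif1* as up-regulated in independent explant assays, against syngeneic and medium controls. The same was reported for skin of transplanted rats with graft versus host disease, against healthy skin. *Aif1*, a gene of macrophages, was at -1.27 here. The direction used here thus rests only on the dyes as the labels give them, and these further measurements of the study have the other sign. With the signs turned every value keeps its size and its test, each gene called higher below would be called lower, and the fibre genes of rat 4 would be higher in the explant with syngeneic lymphocytes. An array held 15208 probe spots, of which 78.3% to 99.7% were well above background in Cy3 and 74.8% to 99.9% in Cy5. Over all genes the median log2-fold change was 0.01 and the median SD over the 12 rats was 0.13, and 90% of the genes had an SD below 0.43. A pair of rats stood apart. The log2-fold changes of rat 8 had an SD of 0.70 over the genes, against 0.20 to 0.35 in the other rats, and correlated with those of each other rat at r = 0.08 to 0.23. Array 1 of rat 10 was far brighter than the other arrays, with a median Cy5 intensity of 25600 against a median over arrays of 353, and the main differences between its values and those of array 2 are given below.

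The genes of the contractile fibre differed between both explants of a rat by large amounts, but not in one direction. *Acta1* encodes the actin of the thin filament in skeletal muscle. Its log2-fold change was lowest in rat 8 at -1.08, had a median of -0.14 and was highest in rat 4 at 2.56. It was above 0 in 5 of 12 rats, and the mean of -0.05 ± 1.01 (SD, n = 12) lay far inside the spread. The level of *Acta1* (log2 intensity) ran from 8.40 over a median of 9.63 to 11.36 in the syngeneic explants, and from 8.64 over 9.54 to 13.00 in the allogeneic explants. The groups overlapped over nearly their whole range, and the allogeneic explant of rat 4 alone lay above all syngeneic ones by more than 1 log2 unit.

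*Mybph*, a myosin-binding protein of the thick filament, had a log2-fold change of -0.79 in rat 8, a median of -0.04 and 2.63 in rat 4. It was above 0 in 5 of 12 rats, with a mean of 0.13 ± 0.89 (SD, n = 12), and its value in rat 12 rests on 1 array because a spot was marked as an outlier. Levels were 8.01 to 9.44 in the syngeneic explants (median 8.73) and 8.15 to 11.2 in the allogeneic explants (median 8.66). The groups overlapped except for the allogeneic explants of rat 4 and rat 2, and rat 2 had the second largest log2-fold change, 0.84.

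*Ckm*, the cytosolic creatine kinase of muscle, was lowest in rat 12 at -1.10, had a median of -0.37 and was highest in rat 4 at 2.58, a 6.00-fold difference. It was above 0 in 4 of 12 rats, with a mean of -0.06 ± 1.02 (SD, n = 12). Its levels were 8.91 to 11.8 in the syngeneic and 8.65 to 12.6 in the allogeneic explants, with medians of 10.1 and 10.2. *Ckmt2*, the creatine kinase of the mitochondria in striated muscle, ran from -0.60 in rat 8 over a median of -0.13 to 2.12 in rat 4. It too was above 0 in 4 of 12 rats, with a mean of 0.11 ± 0.72 (SD, n = 12). Both creatine kinases thus had a median below 0, and rat 10 came second in both, with a 2.14-fold difference for *Ckm* and a log2-fold change of 0.72 for *Ckmt2*.

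*Pdlim3* encodes a PDZ and LIM domain protein of the Z-disc, and its probes disagreed. Probe 1 had a log2-fold change of -0.40 in rat 7, a median of 0.12 and 3.27 in rat 4, a 9.63-fold difference and the largest value of any of the 8453 probes in that rat. Its mean was 0.41 ± 0.99 (SD, n = 12). Probe 2 lay between -0.06 and 0.36, with a mean of 0.13 ± 0.14 (SD, n = 12), and reached 0.28 in rat 4. Its level was only 6.55 to 7.24 over all explants, and its signal passed the background flag for the allogeneic sample on 22 arrays and for the syngeneic sample on 19, of 24. For the gene as the mean of both probes the log2-fold change was 0.27 ± 0.52 (SD, n = 12), and the values of probe 1 are used below for the co-variation.

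*Actn2*, the α-actinin that cross-links thin filaments at the Z-disc, did not share this spread. Its log2-fold change ran from -0.06 in rat 11 over a median of 0.12 to 0.39 in rat 4, and its mean was 0.13 ± 0.14 (SD, n = 12). The orientations did not give the same sign. With the allogeneic sample in Cy5 the mean was -0.27, and with that sample in Cy3 it was 0.52. The dye thus moved the value by more than the rats did, and the mean of both orientations is the value in which an equal dye effect cancels. Levels stayed between 10.0 and 10.7 in all 24 explants, the narrowest range of the 10 genes.

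*Ryr1*, the calcium release channel of the sarcoplasmic reticulum, lay between -0.22 in rat 3 and 1.02 in rat 4, with a median of 0.04 and a mean of 0.11 ± 0.32 (SD, n = 12). It was above 0 in 6 of 12 rats. Without rat 4 its mean was 0.03 ± 0.15 (SD).

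**Figure D1:**
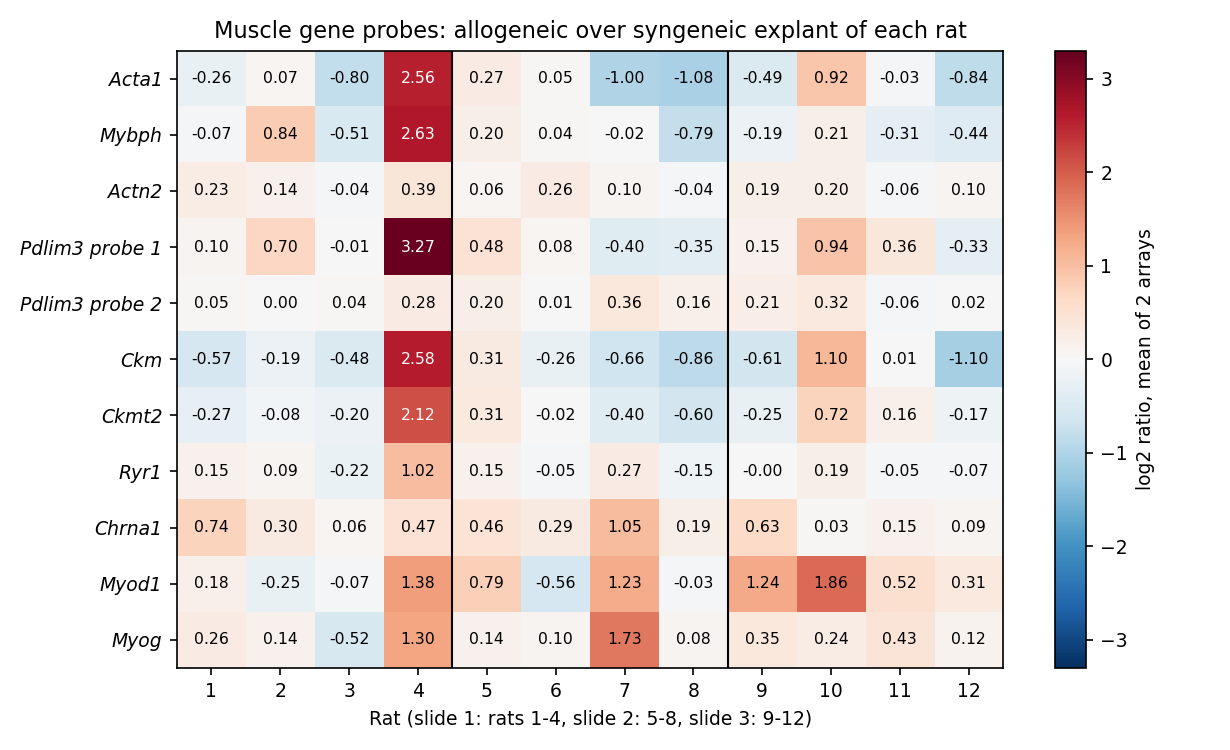
Log2-fold change, allogeneic over syngeneic explant, of the 11 probes of the 10 muscle genes (rows) in each of 12 rats (columns), each cell being the mean of 2 dye-swapped arrays, with red for higher and blue for lower in the explant labelled allogeneic and black lines between slides. The column of rat 4 holds the largest values of *Acta1*, *Mybph*, *Pdlim3* probe 1, *Ckm* and *Ckmt2*, and that of rat 7 those of *Chrna1* and *Myog*.

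The receptor and the myogenic regulators had another pattern. *Chrna1* encodes the α subunit of the muscle acetylcholine receptor, which fibres without nerve contact make along their whole length. Its log2-fold change was above 0 in 12 of 12 rats, from 0.03 in rat 10 over a median of 0.30 to 1.05 in rat 7, with a mean of 0.37 ± 0.31 (SD, n = 12). In rat 10 the arrays gave -0.48 and 0.54, and in rat 3 they gave -0.02 and 0.15. With the processed signals of the scanner software the value of rat 8 was -0.01. The levels of both explants of a rat went together, with r = 0.94 over the 12 rats, and each group spanned 8.35 to 10.4 (syngeneic) and 8.38 to 11.5 (allogeneic), so that the groups overlapped although each pair had the same sign.

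*Myod1*, the regulator that commits cells to the muscle lineage, ran from -0.56 in rat 6 over a median of 0.42 to 1.86 in rat 10, and was above 0 in 8 of 12 rats. Its mean of 0.55 ± 0.75 (SD, n = 12) was the highest of the 10 genes. The probe was bright, with medians of 12.9 in the syngeneic and 13.4 in the allogeneic explants, and the arrays of rat 10 gave 1.58 and 2.13. *Myod1* in rat 10 was the largest log2-fold change of all 8453 probes in that rat.

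*Myog*, the regulator of terminal differentiation, ran from -0.52 in rat 3 over a median of 0.19 to 1.73 in rat 7. It was above 0 in 11 of 12 rats, with a mean of 0.37 ± 0.59 (SD, n = 12). The allogeneic explant of rat 7 had the highest level of all explants, 13.05 against a median of 10.91 in its group. Rat 7 also had 1.23 for *Myod1* and 1.05 for *Chrna1*, whereas its arrays gave -1.03 and -0.97 for *Acta1* and its *Ckm* was at -0.66, so that the explant with the highest *Myog* had less signal of these fibre genes than its syngeneic partner.

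**Figure D2:**
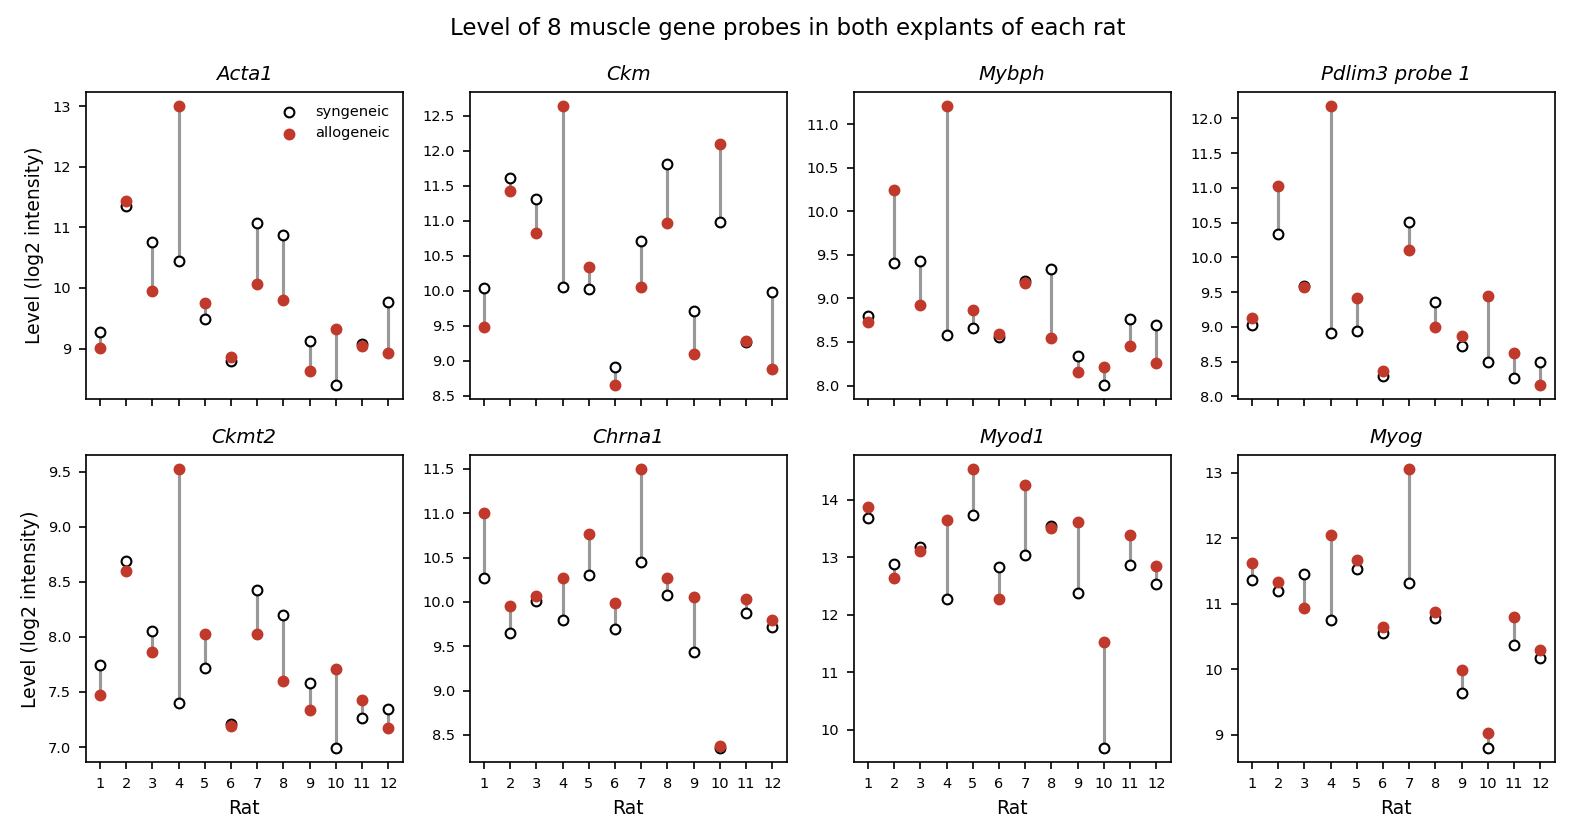
Level (log2 intensity after normalization between arrays, vertical axis, with its own scale for each gene) of 8 probes in the syngeneic (open) and the allogeneic (red) explant of each of 12 rats, joined by a grey line. For *Acta1* the points of both groups lie among each other except in rat 4, where the levels were 10.44 and 13.00, and for *Chrna1* the red point lies above the open one in 12 of 12 rats.

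Levels also differed between rats within a group, from 8.40 to 11.36 for *Acta1* and from 8.91 to 11.8 for *Ckm* over the syngeneic explants. Between the lowest and the highest of the 24 explants of both groups, the level differed 24.3-fold for *Acta1*, 15.9-fold for *Ckm* and 16.2-fold for *Pdlim3* probe 1. The highest level of each of these probes was that of the allogeneic explant of rat 4, so that these spans include the difference between both explants of that rat. The level differed 28.9-fold for *Myod1* and 19.1-fold for *Myog*, but only 1.59-fold for *Actn2* and 2.32-fold for *Ryr1*. The lowest levels of *Acta1*, *Mybph*, *Actn2*, *Ckmt2*, *Chrna1*, *Myod1* and *Myog* were those of the syngeneic explant of rat 10, the rat with the bright array. Without that rat, left out after seeing the data, the span was 4.78-fold for *Myod1*, 10.6-fold for *Myog* and 4.17-fold for *Chrna1*, but still 20.6-fold for *Acta1* and 15.9-fold for *Ckm*. Across the 12 rats the levels of the syngeneic and of the allogeneic explant had r = 0.62 for *Acta1*, 0.63 for *Ckm*, 0.29 for *Mybph* and 0.29 for *Ckmt2*, compared with 0.94 for *Chrna1* and 0.82 for *Myog*. Without rat 10 it was 0.85 for *Chrna1* and 0.70 for *Myog*. These correlations describe 12 pairs that share an array, and no test was made of them.

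The spread between rats was larger than the error between arrays for every probe but that of *Actn2*. The SD of a single array around the mean of its rat was 0.35 for *Acta1*, 0.27 for *Mybph*, 0.44 for *Ckm*, 0.22 for *Ckmt2* and 0.31 for *Myod1*, and thus well below the SD between rats in each. For *Myog* it was 0.48 against 0.59 between rats, and for *Actn2* it was 0.58 against 0.14. For *Myog* and *Myod1* array 1 gave the higher value in every rat but rat 10, and for *Actn2* array 2 did in every rat. The mean of *Myog* was 0.64 with the allogeneic sample in Cy5 and 0.09 with that sample in Cy3. For *Acta1*, *Ckm*, *Ckmt2* and *Pdlim3* probe 1 a large part of the error came from rat 10. The median of the array error over the 10 genes was 0.29, and 0.14 without that rat, where *Acta1* had 0.08 on array 1 and 1.76 on array 2 and *Ckm* had 0.10 and 2.10. In the same rat *Pdlim3* probe 1 had 0.04 and 1.84, *Ckmt2* 0.26 and 1.19, *Ryr1* -0.15 and 0.54, and *Myog* -0.07 and 0.55. The array with the ordinary brightness gave the larger value for each of these 6 probes.

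**Figure D3:**
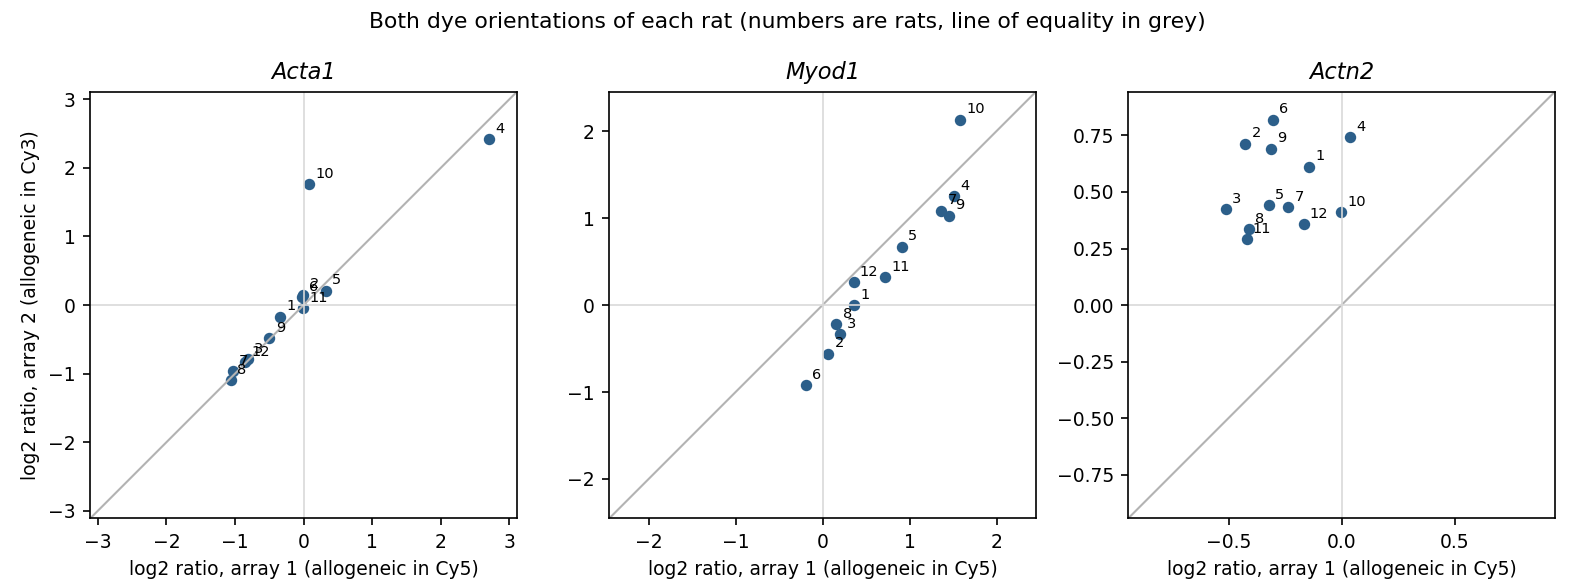
Log2-fold change on array 1 (allogeneic sample in Cy5, horizontal axis) against array 2 (allogeneic sample in Cy3, vertical axis) for *Acta1*, *Myod1* and *Actn2*, with 1 point per rat and the line of equality in grey. *Acta1* lies close to the line except in rat 10 (0.08 and 1.76), and every *Actn2* point lies above it.

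Of the 10 genes, 7 had an SD over rats above the 90th percentile of all genes, and *Ryr1*, *Chrna1* and *Actn2* did not. *Chrna1* and *Actn2* were 2 of 10 genes with an adjusted p under 0.05 in the limma fit over all genes, in which 16.3% of the 7221 genes were called. Both were higher in the explant labelled allogeneic, as were 8.67% of all genes. Nothing is read from this count because the members were chosen on these values. The median of the 10 mean log2-fold changes was 0.13, 0.07 without rat 4 and 0.20 without rat 8. Within slides 1, 2 and 3, of 4 rats each, *Acta1* had means of 0.40, -0.44 and -0.11 and *Ckm* of 0.34, -0.37 and -0.15, whereas *Chrna1* (0.39, 0.50, 0.22), *Myod1* (0.31, 0.36, 0.98) and *Myog* (0.30, 0.51, 0.29) were above 0 on each.

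Rat 4 held the largest values of the fibre genes. In the ranking of all 7221 genes in that rat, *Mybph*, *Ckm*, *Acta1* and *Ckmt2* came 2nd to 5th and *Pdlim3* 7th, and the mean of the 10 genes was 1.62, against -0.34 to 0.61 in the other 11 rats. Of the 10 genes, 8 exceeded 1 in rat 4, 3 in rat 7 (*Chrna1*, *Myod1*, *Myog*), 2 in rat 10 (*Ckm*, *Myod1*) and 1 in rat 9 (*Myod1*). Without rat 4 the mean was below 0 for *Mybph* and *Ckmt2* (-0.09 and -0.07) and was -0.29 for *Acta1* and -0.30 for *Ckm*. The direction of *Mybph* and *Ckmt2* as a mean therefore rested on rat 4, and *Acta1* turned to 0.04 without rat 8 and *Ckm* to 0.04 without rat 12.

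In rat 4 the other gene lists had smaller means than the 10 genes, which had been picked on such values. The 43 other muscle genes on the array, described below, averaged 0.43 there, less than the dermal fibroblast genes. The mean log2-fold change in that rat was 0.15 for the 2 smooth muscle genes on the array, 0.10 for 6 cardiac genes, -0.06 for 4 keratinocyte genes, 0.55 for 3 dermal fibroblast genes, -0.08 for 6 adipocyte genes, 0.13 for 9 Schwann cell and nerve genes and 0.18 for 8 endothelial genes. Over the 12 rats the means of the fibroblast genes ran from -0.07 to 0.72 and those of the keratinocyte genes from -0.11, in rat 10, to 0.58. The part of the tissue composition of the explants in the values of the muscle genes was not tested.

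Within the fibre genes the log2-fold changes went together across rats. The 5 probes of *Acta1*, *Ckm*, *Ckmt2*, *Mybph* and *Pdlim3* (probe 1) gave 10 pairs with r = 0.86 to 0.97 (median 0.96, n = 12) and Spearman's ρ = 0.66 to 0.94. This set was formed after the values had been seen. Without rat 4 the 10 pairs had r = 0.47 to 0.93 (median 0.86), and the closest pairs were *Acta1* with *Pdlim3* probe 1 (0.93) and *Ckm* with *Ckmt2* (0.92), while *Mybph* with *Ckmt2* was the loosest. After leaving out for each pair the 2 rats farthest from the median, r was 0.45 to 0.89. The levels themselves went together in the same way, with a median r of 0.81 over the syngeneic and 0.94 over the allogeneic explants.

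The log2-fold changes of *Myod1*, *Myog* and *Chrna1* were less close to each other, with r = 0.26 for *Myod1* with *Chrna1*, 0.57 for *Myod1* with *Myog* and 0.70 for *Myog* with *Chrna1*. Their levels were closer than their log2-fold changes, with a median r of 0.89 over the syngeneic explants, above that of the fibre set, and 0.88 over the allogeneic explants. Without rat 10 these medians were 0.76 and 0.77, below the 0.85 and 0.96 of the fibre set in the same 11 rats. Between these 3 and the 5 fibre probes the median of 15 pairs was r = 0.36, and -0.08 without rat 4. *Myod1* was closer to the fibre probes than this median, with 0.54 for *Ckm* and 0.51 for *Ckmt2* in 12 rats. Without rat 4 it had 0.47 with *Ckm* and 0.45 with *Ckmt2*, near its 0.48 with *Myog*, but 0.09 with *Mybph*. *Ryr1* followed the fibre probes at 0.84 to 0.93 in 12 rats, and without rat 4 it was closer to *Myog* (0.68) and *Mybph* (0.65) than to *Acta1* (0.43). The pairs share rats, arrays and normalization, and no p was computed.

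**Figure D4:**
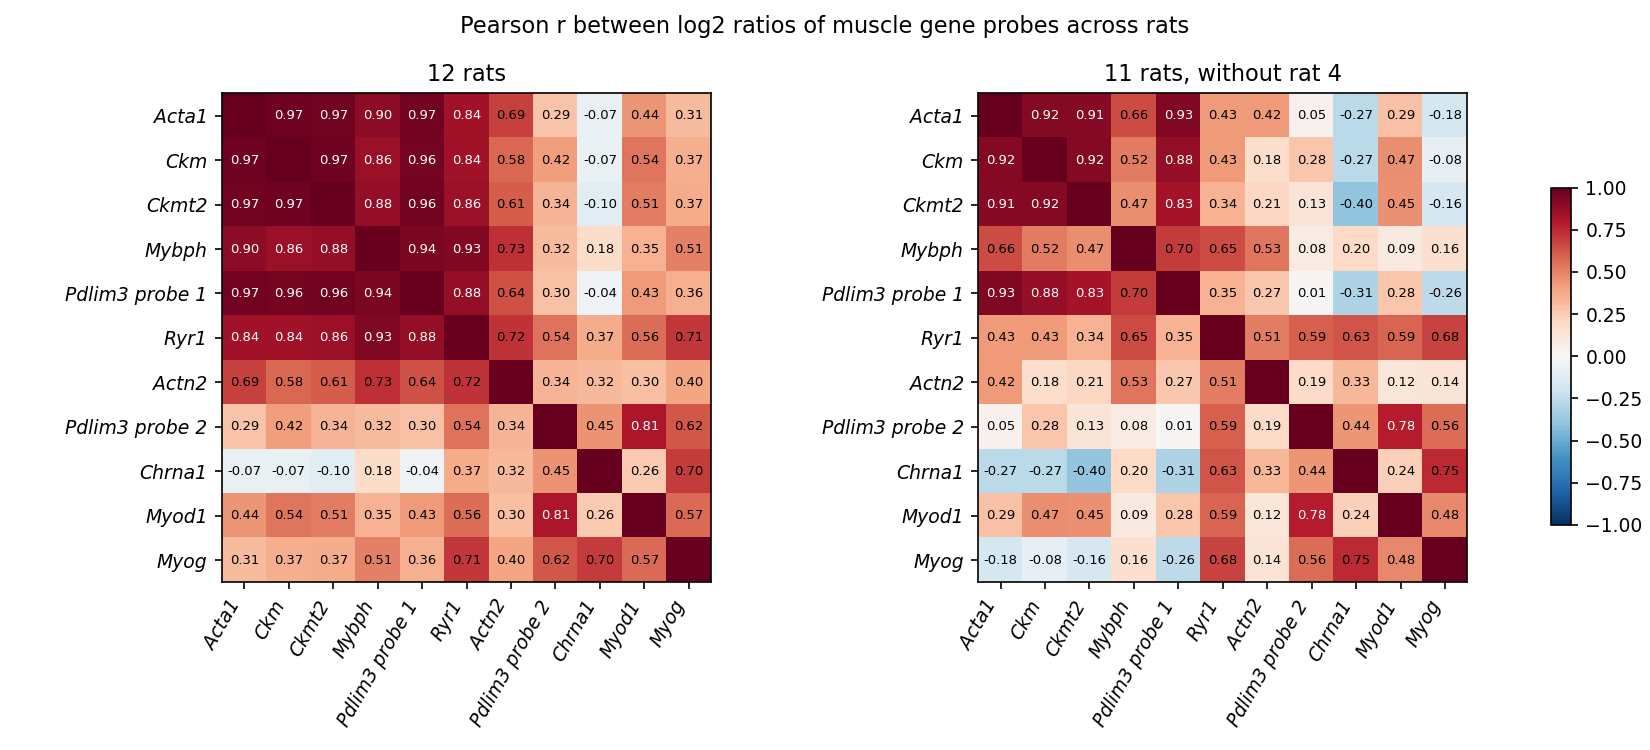
Pearson r between the log2-fold changes of each pair of the 11 probes over 12 rats (left) and over 11 rats without rat 4 (right), from blue (-1) over white (0) to red (1). The block of *Acta1*, *Ckm*, *Ckmt2*, *Mybph* and *Pdlim3* probe 1 has r = 0.86 to 0.97 on the left and 0.47 to 0.93 on the right. The values of these probes with *Chrna1* and *Myog* lie between -0.40 and 0.20 on the right, and those with *Myod1* between 0.09 and 0.47.

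Other skeletal muscle genes were taken from a list written from textbook knowledge, but with earlier results of these arrays known. The list held 158 genes, of which 43 were on the array. Few genes of the contractile fibre were among them, with 0 of 16 listed for the thin filament and 2 of 19 for the thick filament. The array held 3 of 20 listed for the Z-disc and cytoskeleton and 0 of 20 for calcium handling and excitation. The counts below thus say little about fibre genes. Of the 43 genes, 12 were higher in the explant labelled allogeneic (27.9%), 0 were lower and 31 did not pass the test, with 8.67% and 7.6% of all genes called in these directions. The median log2-fold change of the 43 genes was 0.10, against 0.01 over all genes, and their mean was above 0 in 12 of 12 rats, from 0.06 to 0.43, with the maximum in rat 4. This was not particular to muscle. Among the marker lists described below, the median was 0.23 for keratinocyte and 0.41 for fibroblast genes, but 0.005 for cardiac and -0.17 for adipocyte genes. Of the endothelial genes 37.5% and of the Schwann cell and nerve genes 33.3% were called, all higher. The mean of the Schwann cell and nerve genes was also above 0 in 12 of 12 rats. The test was limma on the 12 rats with Benjamini-Hochberg adjustment over all genes. With the rats of 1 slide alone 1, 0 and 4 of the 43 genes passed, all higher, and without rat 5 the count was 7. Without rats 4 and 7, a choice made after seeing the data, 7 were higher and *Asb2* was lower.

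Of 11 genes of the neuromuscular junction 2 were higher, and these had the largest changes among the 12 called muscle genes. *Pdzrn3*, a ubiquitin ligase that acts on the receptor-clustering kinase of the synapse, was higher by 0.95 ± 0.47 (SD, n = 12; adjusted p = 3.93e-04, limma), and *Ncam1*, an adhesion molecule that denervated fibres and satellite cells carry, by 0.87 ± 0.39 (adjusted p = 2.12e-04, limma). Both were higher in 12 of 12 rats, the lowest being 0.48 and 0.28. The other 9 junction genes did not pass. Among them *Chrng*, the γ subunit of the fetal acetylcholine receptor, had 0.43 ± 0.61 (SD) and reached 2.13 in rat 7, the largest log2-fold change of any gene in that rat. *Chrnd*, the δ subunit, had 0.94 in rat 4 and 0.91 in rat 7 and a mean of 0.19, and *Musk*, the synaptic kinase, had 0.10 (adjusted p = 0.0507, limma).

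Of 14 myogenic regulators and satellite cell genes, 3 were higher. They included *Klhl40*, a stabilizer of thin filament proteins, with 0.31 ± 0.34 (adjusted p = 0.0337) and *Myf5*, the earliest regulator, with 0.23 ± 0.25 (adjusted p = 0.0423, both limma and SD with n = 12). *Myf6*, the regulator of mature fibres, had 0.39 ± 0.52 with 1.74 in rat 4 and did not pass. *Pax3* (0.02) and *Mef2d* (0.01) did not pass either.

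Of 6 genes of energy metabolism 3 were higher, namely the adenylate kinase *Ak1* (0.34 ± 0.23, 11 of 12 rats, adjusted p = 0.00323), the muscle phosphofructokinase *Pfkm* (0.30 ± 0.19, 11 of 12 rats, adjusted p = 0.00216) and the phosphorylase kinase subunit *Phkg1* (0.13 ± 0.12, 10 of 12 rats, adjusted p = 0.0208; limma, SD and n = 12 for each). Of 7 genes of the membrane complex and of atrophy 3 were higher. They were *Cav3*, the caveolin of muscle, with 0.49 ± 0.53 (adjusted p = 0.0358), *Itga7*, a laminin receptor, with 0.37 ± 0.30 (adjusted p = 0.00802), and *Dysf*, which takes part in membrane repair, with 0.24 ± 0.26 (adjusted p = 0.0314; limma, SD and n = 12). Of 2 thick filament genes, *Mybpc1*, the slow myosin-binding protein C, was higher by 0.32 ± 0.33 (adjusted p = 0.0283, limma) with 1.00 in rat 4, and *Mylk2* was not (-0.06). The 3 Z-disc genes did not pass, although *Ankrd1*, a stretch-responsive ankyrin protein, had the largest log2-fold change of all genes, with probes averaged, in rat 4 (2.74) and 1.74 in rat 7.

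Several of these calls depended on single rats. Leaving out 1 rat at a time took the call from *Myf5* in 9, from *Cav3* and *Dysf* in 7, from *Klhl40* in 6 and from *Mybpc1* in 3 of 12 cases, and from none of the other 7 genes, with adjusted p up to 0.0913 (*Myf5*, limma), and the sign stayed above 0 in each case. *Dysf* was not called with the allogeneic sample in Cy5 alone, nor were *Cav3*, *Itga7*, *Myf5*, *Pfkm* and *Phkg1* with that sample in Cy3 alone. With median centring in place of loess *Ak1* was at 0.22 (adjusted p = 0.234, limma) and *Itga7* at 0.29 (adjusted p = 0.0505, limma), and neither was called. The size of *Phkg1* depended on the processing, with 0.51 from the processed signals, 0.33 in the deposited table and 0.06 with the allogeneic sample in Cy3 alone. *Pfkm* was at 0.15 in that orientation, and *Klhl40* at 0.52 by its brightest probe.

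**Figure D5:**
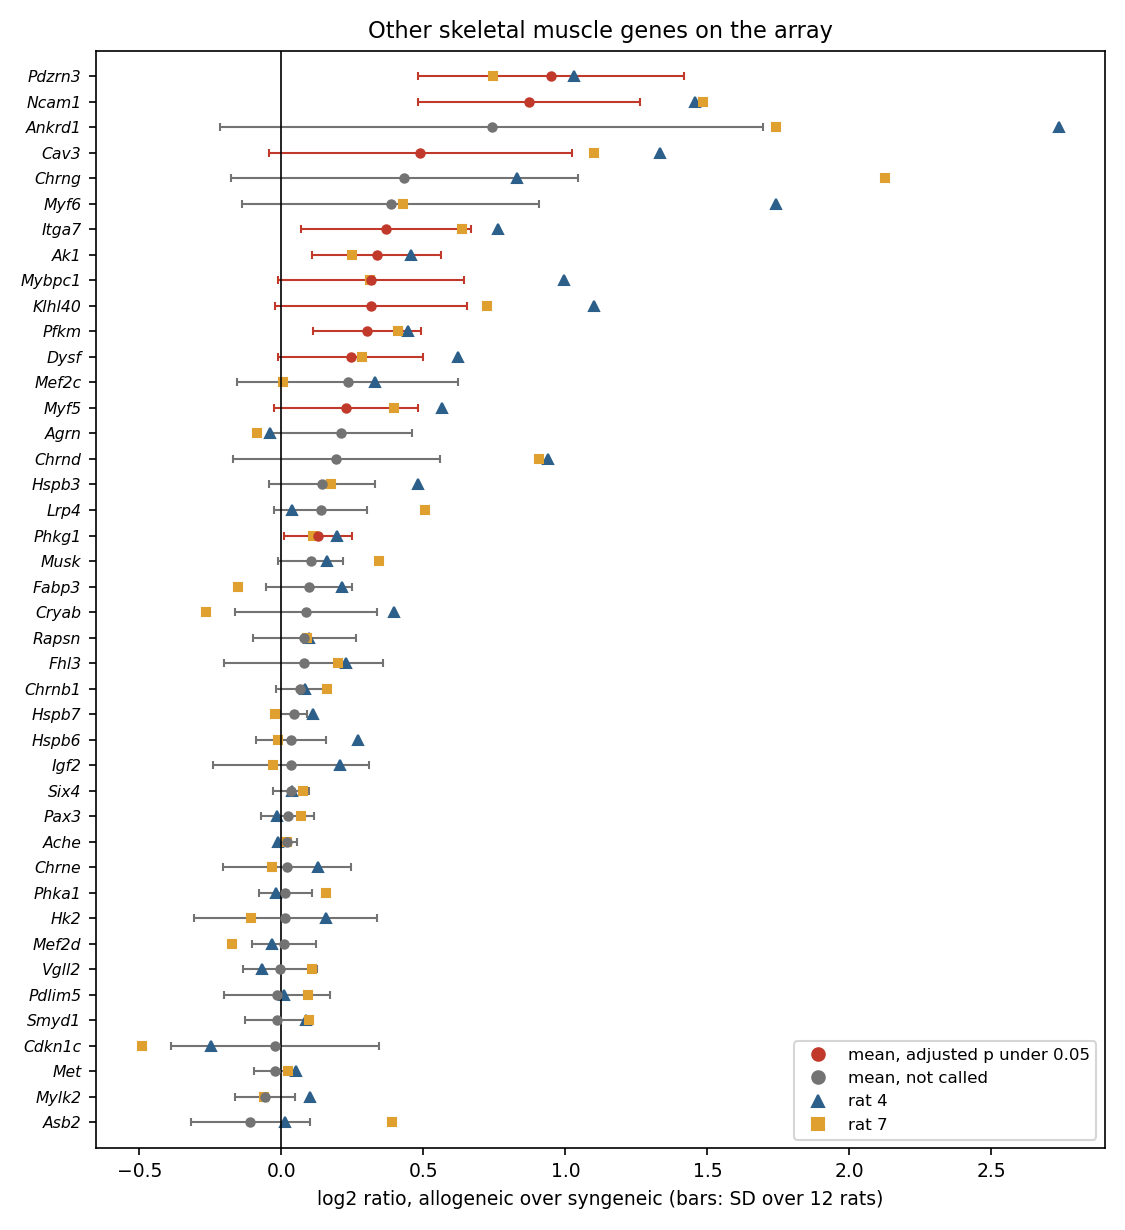
Mean log2-fold change (points) and SD over 12 rats (bars) of other skeletal muscle genes on the array, in order of their mean, with red for genes called at an adjusted p under 0.05 (limma) and grey for the others, and with the values of rat 4 (triangles) and rat 7 (squares). The called genes shown all lie above 0, led by *Pdzrn3* (0.95) and *Ncam1* (0.87), and the widest bar is that of *Ankrd1* (0.74 ± 0.96).

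Markers of other cell types were measured on the same arrays, on which 8.67% of all genes were called higher and 7.6% lower. Among the 4 keratinocyte genes *Lgals7* was higher (0.66) and *Jup* was not called (0.26), and among the 3 fibroblast genes *Col1a2* was higher (0.55) and *Pdgfra* was not called (0.41). Of 9 genes of Schwann cells and nerve 3 were higher, with *Pmp22* at 0.36, and of 8 endothelial genes 3, with *Cdh5* at 0.33, while *Vwf* was not called (0.24). Of 6 adipocyte genes *Adipoq* was higher (0.56) and 2 were lower, and *Cfd* was not called (-0.40). Of 2 smooth muscle genes *Mylk* was higher (0.10) and *Myocd* was not called (0.03), and of 6 cardiac genes 0 were called, with *Nppb* at 0.12 and *Nppa* at 0.04.

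Markers of leukocytes were called lower more often than higher in the explant labelled allogeneic, where 7.6% of all genes were lower and 8.67% higher. Of 14 macrophage genes 7 were lower, led by *Fcgr3a* (-2.19) and *Trem2* (-1.69), and 2 were higher, *C1qa* (0.21) and *C1qc* (0.19). *Cd163* (0.18), *C1qb* (0.09) and *Cd14* (0.01) lay above 0 without a call. Of 12 T cell genes 5 were lower, with *Cd5* at -0.97 and *Lck* at -0.70, and of 10 NK cell genes 5, with *Gzmb* at -0.69 and *Gzma* at -0.38. The mean of the macrophage genes was below 0 in 12 of 12 rats (-1.27 to -0.11), whereas the fibre genes had no common sign across rats. Whether these markers have a part in the muscle gene values was not tested.

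The genes whose pattern over the 12 rats was most like that of the 10 muscle genes were sought among 5510 other genes with a symbol and a signal above background. The measure was r with the mean of the standardized values of the 10 genes. The 10 closest were *Angpt4* (0.91), *Phox2a* (0.88), *RT1-T24-1* (0.87), *Klhl40* (0.86), *Abra* (0.85), *Camk2b* (0.85), *Myf6* (0.83), *C1qtnf2* (0.83), *Eef1a2* (0.83) and *Chrnd* (0.82). Of these, 3 were on the muscle list. Without rats 4 and 8, the farthest from the median, r was 0.19 for *Eef1a2* and 0.34 for *Phox2a* and highest for *Myf6* (0.73). Without rat 4 none of these 10 remained among the 10 closest.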

How the data were processed

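The expression profiling compared RNA of 2 skin explants from each of 12 rats on 24 two-color arrays. The authors deposited scanner files in which every spot has mean, background and processed intensities for Cy3 and Cy5, and spot flags (0 or 1, set by the Feature Extraction software), all extracted without pooling. They also deposited a table of log2 ratios, titled stimulated against non-stimulated, without a statement on whether swapped columns were turned. Its columns correlated positively with allogeneic over syngeneic on all 24 arrays and were taken as turned. Probe coordinates are on rn3 per the file headers.

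The mean intensities were corrected by normexp (offset 50) and normalized by loess within arrays, with limma 3.58.1 in R 4.3.3. The statmod package was 1.5.0. Control and outlier spots were left out. The sign of dye-swapped arrays was reversed, averages were taken over a probe's spots, a rat's arrays and a gene's probes, and genes were tested against 0 by limma over 12 rats, with Benjamini-Hochberg adjustment over 7221 genes and a threshold of 0.05. Of 8453 probes, 4685 were named by accession, 1869 by symbol and 501 by a synonym. Levels were made comparable between arrays by Aquantile normalization. The number of arrays limits the precision. The fit was tested on simulated data.

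The members and gene lists were chosen with earlier results of these data known. Named were all 10 members, the called genes of the muscle list, the 10 genes of highest r with the members, and the 2 genes of largest mean log2-fold change in each marker list. Any other gene was picked with its values in view, and a few items that this rule would name are not reported here. Both arrays of a rat hold the same RNA extracts and count as 1 replicate. Alternatives concerned the background, normalization, dye orientation, filter on dim probes, outlier spots, deposited table, probe choice, slide, test and each rat. Array 1 of rat 10, rat 10 (for levels), and rats 4 and 7, were left out as choices made after seeing the data.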

Additional observations from a re-analysis of the deposited data

How the results depend on the processing

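The count of 12 called muscle genes, all higher, lay within 1.5 times under 11 of 15 other settings. It was 16 with the 24 arrays and the rat as a random replicate block and 9 with the slide as a block, all higher. With the replicate block *Myf5* lost its call (adjusted p = 0.0725, limma), and with the slide as a block *Cav3*, *Klhl40* and *Myf5* did (adjusted p = 0.0539, 0.0551 and 0.0692). It was 19 with the processed signals, and 1, 0 and 4 with slides 1, 2 and 3 alone, and 7 to 16 when each rat was left out. Over all genes 1175 were called, 1406 with the replicate block, 2183 with the allogeneic sample in Cy5 alone, 2074 with that sample in Cy3 alone, 97, 7 and 224 on slides 1, 2 and 3, and 929 to 1746 without single rats, the highest without rat 8. Of the cell type markers 31 were called, 5, 2 and 9 on single slides and 25 to 34 without single rats. *Actn2* turned to -0.27 with the allogeneic sample in Cy5 alone, and the median over the 10 members stayed above 0 (0.07 to 0.20 without single rats). The median r over the pairs of member genes was 0.58, 0.93 on slide 1, 0.32 on slide 2 and 0.43 to 0.73 without single rats, the lowest without rat 4. The array error of the members was 0.14 to 0.30 without single rats, the lowest without rat 10. Of the 10 genes most like the members, 5 were shared with median centring, 6 with each dye orientation and with the deposited table, 0 without rats 4 and 7, and 0 to 10 without single rats. The cause was not tested. Of 4 rats on a slide, few genes can pass, and *Pdlim3* probe 2 was close to background.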

Other observations

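Several genes that are no muscle markers stood among the 20 largest log2-fold changes both in rat 4 and in rat 7, and were picked after these values had been seen. *Sfrp2*, a secreted modulator of Wnt signalling, had 1.47 in rat 4 and 1.69 in rat 7. *Vcam1*, an adhesion molecule that binds leukocytes, had 1.73 and 1.32. The muscle genes *Ankrd1* (2.74 and 1.74), *Ncam1* (1.46 and 1.49) and *Myod1* (1.38 and 1.23) also stood in both lists. Rat 4 alone had *Lox* (1.33), which cross-links collagen, among its 20 largest, and rat 7 alone had *Cxcl10* (1.41), a chemokine that attracts T cells.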
